A study of Mus musculus with 12 samples.

Results

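The 44 genes described here are cell cycle and proliferation genes, named in a fixed list and found by symbol in a table of transcript abundances from mouse heart. All 44 symbols were present among the 33641 in the table, and the transcripts of each gene were added together. The values are TPM, a share of each library corrected for transcript length, so that levels can be set side by side between genes. Myocardium, the muscle of the heart, came from 12 mice, all male and C57BL/6 wild type, with 3 in each of 4 groups. Sham vehicle and sham prednisone mice had a sham operation, and MI vehicle and MI prednisone mice had surgery that produced a myocardial infarction (MI). Prednisone, a synthetic glucocorticoid, was given at 1 mg/kg intraperitoneally in PBS from a DMSO stock at lights-on, once a week over 6 weeks, beginning 2 weeks after the operation, and hearts were collected 24 hours after the last dose. What the vehicle contained is not stated in the labels. The mice were about 10 weeks old per the labels' protocols and about 16 weeks old per their characteristics. The labels do not say how far from an infarct the tissue was taken, and each library is 1 mouse.

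As background, a cell enters the cycle when D-type and E-type cyclins, held back by CDK inhibitors, switch on their kinases, which release E2F transcription factors from the retinoblastoma protein and start DNA replication. Mitotic genes follow later in the cycle, many of them under FOXM1 and the DREAM and MuvB complexes, and their proteins are then destroyed through the anaphase-promoting complex. Adult heart muscle cells rarely divide, so transcripts of replication and mitosis in adult myocardium come largely from other cells, such as fibroblasts, endothelial cells and immune cells. In bulk tissue, fewer cells of a type and less RNA per cell cannot be told apart.

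The members fell into 7 roles. The 9 genes of G1 control were the D-type cyclins *Ccnd1*, *Ccnd2* and *Ccnd3*, the E-type cyclins *Ccne1* and *Ccne2*, the transcription factor *E2f1*, and the CDK inhibitors *Cdkn1b* (p27), *Cdkn1c* (p57) and *Cdkn2c* (p18). The 10 replication genes were the MCM helicase subunits *Mcm2* to *Mcm7*, the sliding clamp *Pcna*, the ribonucleotide reductase subunits *Rrm1* and *Rrm2*, and thymidylate synthase *Tyms*. *Mki67* and *Top2a* are widely used proliferation markers. The G2/M group held 10 genes, *Ccna2*, *Ccnb1*, *Ccnb2*, *Cdk1*, *Foxm1*, *Plk1*, *Aurka*, *Aurkb*, *Bub1* and *Bub1b*. The centromere and chromosomal passenger genes were *Cenpa*, *Cenpe*, *Cenpf*, *Birc5* and *Cdca8*. The spindle and cytokinesis genes were *Kif11*, *Kif20a*, *Kif23*, *Nusap1* and *Tpx2*. The protein destruction genes *Cdc20*, *Ube2c* and *Cdca3* made up the rest.

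Before any comparison, 1 library stood apart from the other 11. MI vehicle replicate 3 had 14307 genes at 1 TPM or more, against 11690 to 12772 in the others, and its median gene stood 0.74 above the sham vehicle mean on the log2(TPM + 1) scale, while replicates 1 and 2 stood 0.14 and 0.25 above it. It also carried RNA of lymphocytes. All 6 T cell markers were highest there, and their summed level ranged from 3.13 to 481 TPM in MI vehicle, 1.18 to 26.0 in sham vehicle, 1.34 to 2.71 in sham prednisone and 3.06 to 4.33 in MI prednisone. All 5 B cell markers were highest there too, with sums of 10.8 to 156 TPM in MI vehicle, 3.05 to 14.8 in sham vehicle, 4.02 to 11.8 in sham prednisone and 7.01 to 17.7 in MI prednisone. A list of 8 genes of immature T cells, drawn up after the values were seen, was highest there in 8 of 8, with sums of 4.48 to 461 TPM in MI vehicle, 2.78 to 28.1 in sham vehicle, 2.68 to 3.72 in sham prednisone and 5.21 to 12.7 in MI prednisone. *Rag1*, an enzyme that rearranges antigen receptor genes in developing lymphocytes, was at 0, 0.0095 and 88.0 TPM in MI vehicle replicates 1, 2 and 3. It was at 1.16, 4.83 and 0 TPM in sham vehicle and was listed at 0 in all 6 prednisone libraries. Heart muscle markers were abundant in all libraries, at 14711 to 23757 TPM summed over 6 genes. The share of mitochondrial transcripts was 23.1% in that library, 24.6 and 21.6% in MI prednisone replicates 1 and 2, and 32.4 to 42.0% in the other 9. Counts and named genes in comparisons that use MI vehicle are therefore given with and without its replicate 3, and those of the members also without the 3 libraries at 1 TPM or more of *Rag1*.

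MI vehicle replicate 3 held the highest value of the 12 libraries in 41 of the 44 genes (93.2%, against 66.1% of the 13158 genes tested). It was more than 2 times every other library in 36 of them (81.8% against 10.3%) and more than 5 times in 22 (50% against 1.73%). The size of the excess differed by role. Ratios were taken of replicate 3 to the mean of the other 2 MI vehicle libraries. Their median was 2.30 in the G1 genes, 4.66 in the replication genes and 10.0 in the G2/M genes. It was 7.84 in the centromere genes, 8.29 in the spindle genes and 7.68 in the protein destruction genes. *Top2a*, the topoisomerase that untangles replicated DNA, had the largest ratio, at 1.91, 3.57 and 44.8 TPM in MI vehicle replicates 1, 2 and 3, or 16.3 times. *Mki67*, the gene of the Ki-67 antigen, was at 0.83, 1.37 and 17.2 TPM, or 15.6 times, and the median tested gene was 1.46 times as high. The 3 exceptions were *Ccnd2*, highest by a small margin in MI vehicle replicate 2 (37.3 against 37.2 TPM), *Cdkn1c*, highest in MI prednisone replicate 2 (29.1 TPM), and *Cenpf*, highest in sham vehicle replicate 3 (5.06 TPM).

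**Figure D1:**
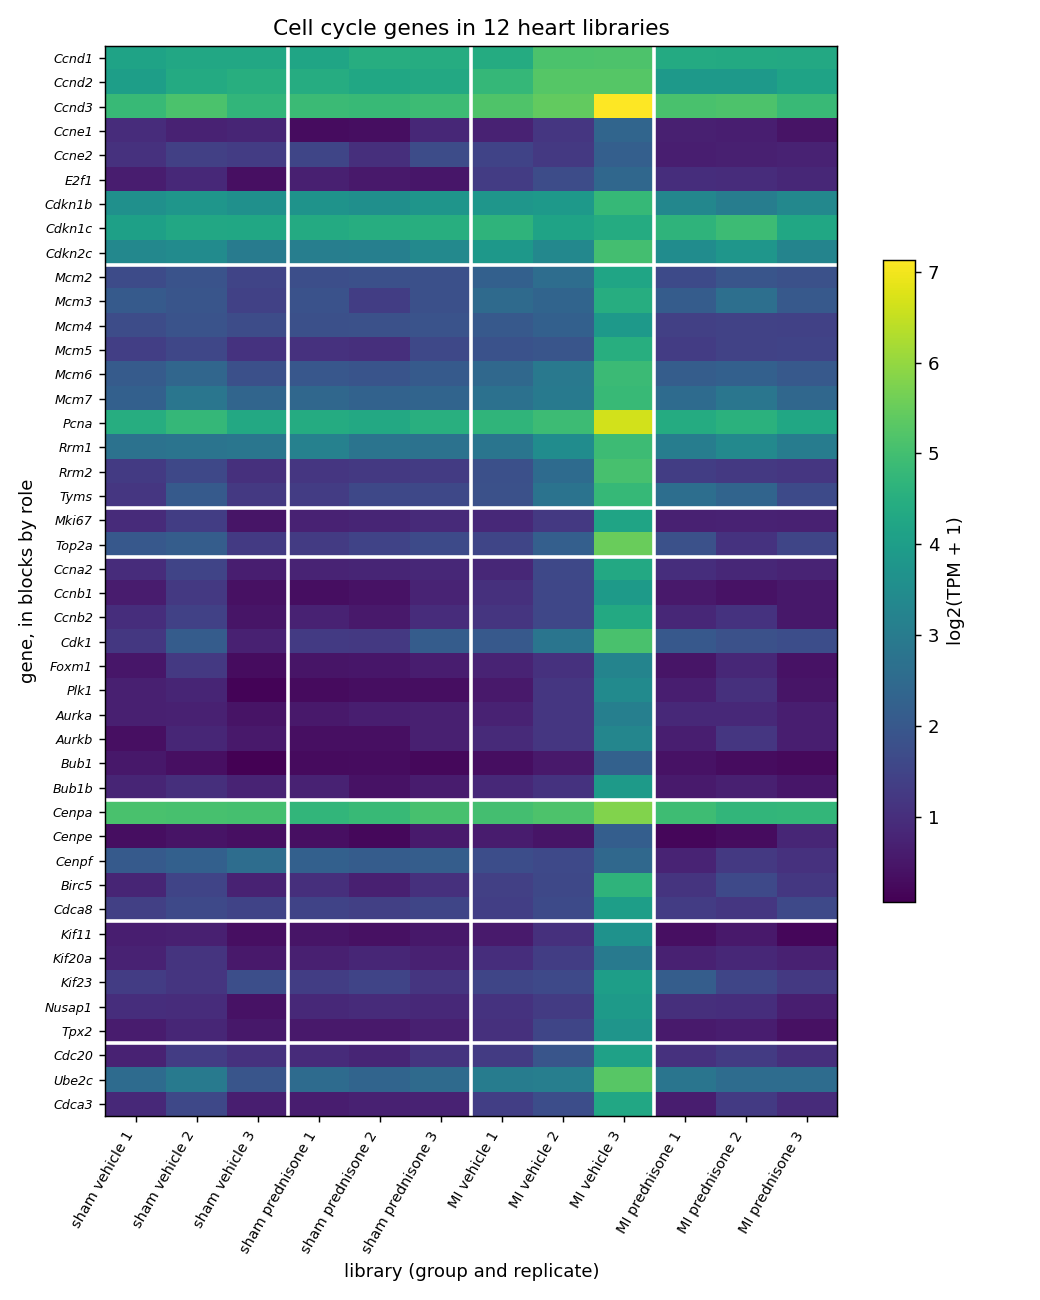
Levels of the 44 genes (rows, in blocks by role with the names of the genes) in the 12 libraries (columns, by group and replicate), as colour on a log2(TPM + 1) scale. The column of MI vehicle replicate 3 is the brightest in most rows, while *Ccnd1*, *Ccnd2*, *Cdkn1c*, *Cenpa* and *Cenpf* vary less between libraries.

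Outside that library most mitotic genes were at low levels, *Cenpa* excepted. The D-type cyclins and CDK inhibitors of G1 were higher, while *Ccne1*, *Ccne2* and *E2f1* reached at most 1.26, 2.29 and 2.28 TPM. *Cdk1*, the kinase that drives mitosis, was at 1.30, 3.36 and 0.64 TPM in sham vehicle and 3.11, 5.98 and 33.4 TPM in MI vehicle, and the prednisone mice had 1.41, 1.35 and 3.39 TPM after sham and 3.01, 2.55 and 2.30 TPM after MI. MI vehicle lay above MI prednisone and overlapped both sham groups, apart from its replicate 3. Summed over the 10 G2/M genes, the level was 6.85, 13.1 and 3.76 TPM in sham vehicle, 5.27, 4.96 and 8.60 TPM in sham prednisone, 10.0, 18.4 and 139 TPM in MI vehicle and 8.47, 9.64 and 6.35 in MI prednisone. The sum over the 9 G1 genes, in contrast, lay between 98.9 and 158 TPM in 11 libraries and was 302 in MI vehicle replicate 3.

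**Figure D2:**
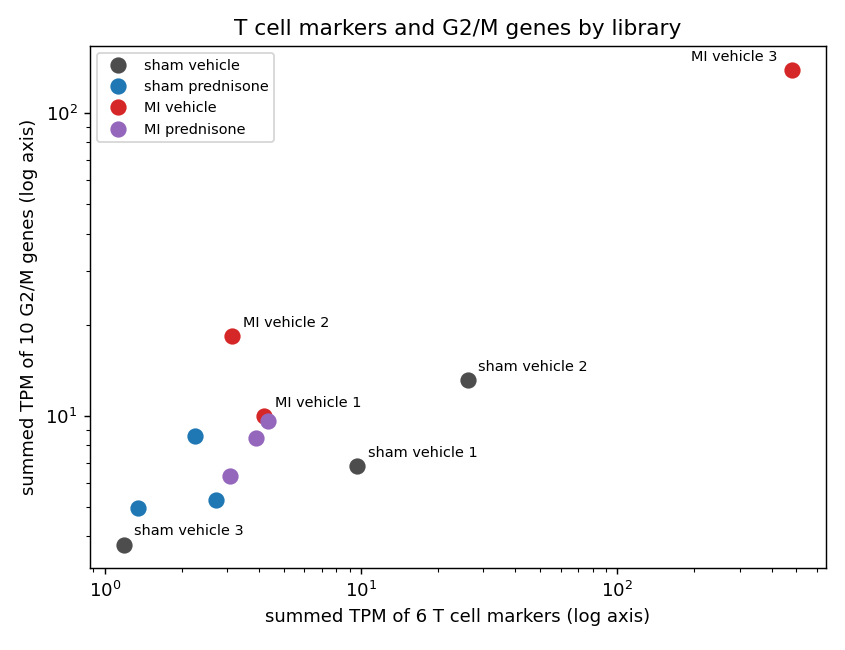
Summed TPM of the 10 G2/M genes (vertical, log axis) against the summed TPM of 6 T cell markers (horizontal, log axis), 1 point per library, coloured by group. MI vehicle replicate 3 lies alone at 481 and 139 TPM, and MI vehicle replicate 2, at 3.13 and 18.4 TPM, has the next highest G2/M sum.

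Within sham vehicle the same direction was seen at a lower level. Replicate 2, which had the highest T cell marker sum of that group (26.0 TPM), was its highest library in 35 of the 44 genes (79.5%, against 67.3% of genes tested). Replicate 3, with the lowest sum (1.18 TPM), was its lowest library in 30 (68.2% against 48%). MI vehicle replicate 2, whose T cell sum was 3.13 TPM, was above replicate 1 (4.18 TPM) in 38 genes (86.4% against 68.4%). The part of lymphocyte RNA in the levels of these genes was not tested.

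*Cenpa*, the histone variant that marks centromeres, had the smallest excess of the mitotic genes in MI vehicle replicate 3, where it was 1.62 times the mean of the other 2 MI vehicle libraries. It was at 33.4, 32.6 and 32.0 TPM in sham vehicle, 25.5, 27.2 and 32.7 TPM in sham prednisone, 31.7, 35.0 and 54.1 TPM in MI vehicle and 29.6, 25.3 and 25.7 in MI prednisone, many times the level of *Cenpe*, a centromere motor, which was between 0.15 and 3.49 TPM. Its most abundant transcript is annotated as a target of nonsense-mediated decay and held 57.1% of the gene's TPM. The most abundant transcript of *Tyms* had the same annotation (37.3%), that of *Kif23* was a processed transcript (27.5%), that of *Kif20a* had no match in the annotation, and those of the other 40 were protein-coding.

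Promoter sequence was examined because the mitotic and the replication genes moved as blocks in MI vehicle replicate 3. RefSeq windows (GRCm38.p6) from 250 bases before to 50 after a gene's start were at hand for 34 of the 44 genes, in 37 windows, and were searched on both strands. The letters searched were CCAAT (a box bound by NF-Y), TTTGAA (the cell cycle homology region, CHR, bound by the MuvB core) and any of TTTGGCGC, TTTGCCGC, TTTCGCGC and TTTCCCGC (E2F sites, which can overlap each other). CCAAT was present in 81.1% of the members' windows and in 37.4% of 32851 windows of the same length. TTTGAA was present in 43.2% against 17.9%, and an E2F sequence in 13.5% against 2.26%. The shares differed by role for each motif. CCAAT was found in 18 of 20 windows of mitotic genes and proliferation markers, 9 of 10 of replication genes and 3 of 7 of G1 genes. TTTGAA was found in 15 of 20 windows of the mitotic genes, in 1 of 10 of replication genes and in 0 of 7 of G1 genes, while an E2F sequence was found in 4 of 10 windows of replication genes, 1 of 20 of mitotic genes and 0 of 7 of G1 genes. These matches are letters in a window and not measured sites. The sequences below are 120 bases, 5′ to 3′ on the gene's strand, that hold the motifs of 3 mitotic genes and 1 helicase gene, with matches on either strand in capitals (ATTGG and TTCAAA are CCAAT and TTTGAA read on the other strand). *Cdk1* is from chr10:69352913-69353032 (minus strand), *Cdc20* from chr4:118437344-118437463 (minus strand), *Top2a* from chr11:99024190-99024309 (minus strand) and *Mcm6* from chr1:128359706-128359825 (minus strand).
Cdk1: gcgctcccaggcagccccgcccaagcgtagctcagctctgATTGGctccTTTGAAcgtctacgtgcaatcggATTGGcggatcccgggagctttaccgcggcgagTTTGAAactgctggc
Cdc20: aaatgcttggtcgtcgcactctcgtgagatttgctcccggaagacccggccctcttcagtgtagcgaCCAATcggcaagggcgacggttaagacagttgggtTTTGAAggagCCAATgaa
Top2a: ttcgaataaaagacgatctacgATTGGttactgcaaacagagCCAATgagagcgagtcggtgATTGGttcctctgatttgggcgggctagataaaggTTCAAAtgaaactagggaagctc
Mcm6: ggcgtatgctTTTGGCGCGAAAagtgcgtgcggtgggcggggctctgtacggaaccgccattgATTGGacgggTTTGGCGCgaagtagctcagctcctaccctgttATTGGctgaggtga

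MI was first compared with sham in vehicle-treated mice, to see what infarction alone changed. In limma, a linear model fitted to log2(TPM + 1) of all 13158 genes at 1 TPM or more in at least 3 libraries, 4 of the 39 members that passed this filter rose and 0 fell. The 4 were *Ccnd1*, *Ccnd2*, *E2f1* and *Mcm2*, genes of G1 and of the start of replication, and no mitotic gene was among them. Over all genes tested, 15.1% were called higher and 0.904% lower, so the members' share was near the background. *Aurka*, *Bub1*, *Ccne1*, *Cenpe* and *Kif11* did not pass the filter, and *E2f1*, *Mki67*, *Ccna2*, *Foxm1*, *Plk1*, *Aurkb*, *Bub1b*, *Kif20a* and *Tpx2* passed it only because of MI vehicle replicate 3. *E2f1* and *Tpx2* were at 1 TPM or more in the 3 MI vehicle libraries alone. Since they entered the test through the group where they are high, their calls are given as a description, and 3 of the other 37 members rose.

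*Ccnd2* (cyclin D2, chr6:127125162-127152193 in GRCm38) was at 15.4, 19.9 and 21.7 TPM in sham vehicle and 26.4, 37.3 and 37.2 TPM in MI vehicle. The groups did not overlap, and the rise was 0.79 on the log2(TPM + 1) scale, the scale of all changes below (SE 0.16, limma adjusted p = 0.0164). *Ccnd1* (cyclin D1, chr7:144929931-144939925) was at 16.9, 18.7 and 18.6 TPM in sham vehicle and 20.1, 33.8 and 34.5 TPM in MI vehicle. Its MI vehicle replicate 1 lay close to the sham mice, and the rise was 0.64 (SE 0.18, limma adjusted p = 0.0377). *E2f1* (chr2:154559407-154569892), which switches on the genes of S phase, was at 0.55, 0.84 and 0.27 TPM in sham vehicle and 1.52, 2.28 and 4.38 TPM in MI vehicle. All 3 infarcted hearts were above all 3 sham hearts, with a difference of 1.20 (SE 0.26, limma adjusted p = 0.0172) in a gene admitted to the test by those hearts. *Mcm2* (chr6:88883474-88898780), a subunit of the replicative helicase, was at 2.20, 2.66 and 1.84 TPM in sham vehicle and 3.74, 5.02 and 17.7 TPM in MI vehicle, also without overlap, with a rise of 1.33 (SE 0.39, limma adjusted p = 0.0431).

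The changes of the other 35 members tested ranged from -0.36 for *Cenpf*, a kinetochore protein, to 1.97 for *Cdk1*. The median over the 39 was 1.18, beside 0.39 over all genes tested, and 25 had an unadjusted p under 0.05. Such medians and counts, here and in later comparisons with MI vehicle, include the 9 members that passed the filter only through its replicate 3. They are given as a description. Of the G2/M genes tested, 0 of 8 were called, with a median change of 1.21. The values of MI vehicle lay above all those of sham vehicle in 14 of the 39 (40.8% of all genes tested did so) and below them in 0 (4.17%), among them *Ccnd3*, 5 of the 6 MCM genes, *Rrm2*, *Tpx2* and *Ube2c*.

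Without MI vehicle replicate 3, 4 members were called higher, beside 6.95% of all genes. *Ccnd2* rose by 0.71, *Mcm2* by 0.73 and *Rrm2* by 0.86 (limma adjusted p = 0.0391, 0.0253 and 0.0467). The fourth was *E2f1*, at 0.90 (limma adjusted p = 0.0276), which would not have passed the filter in the remaining 11 libraries. *Rrm2*, the subunit of ribonucleotide reductase that limits the supply of DNA building blocks, was at 1.39, 2.05 and 1.06 TPM in sham vehicle and 2.46, 4.83 and 32.9 TPM in MI vehicle. The median over the members tested was then 0.40, beside 0.19 over all genes, and *Top2a*, *Mki67* and *Ccna2* changed by 0.06, 0.13 and 0.18. Without the 3 libraries at 1 TPM or more of *Rag1*, which leaves 1 sham vehicle mouse assumed to vary like the other groups, limma called 0 members and 0 genes in all, with 22 members and 2917 genes at an unadjusted p under 0.05. The count of members called was 0 without sham vehicle replicate 1 or replicate 3 (10 and 8 at an unadjusted p under 0.05), 2 without replicate 2, 32 without MI vehicle replicate 1 and 5 without MI vehicle replicate 2. The count over all 13158 genes moved too. Called higher were 160, 1130 and 117 genes without sham vehicle replicates 1, 2 and 3, and 5422 and 1525 without MI vehicle replicates 1 and 2.

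After median-ratio rescaling, which removes the shift of the median gene, *Cenpf* fell by 0.71 (limma adjusted p = 0.0414) and *E2f1* was again called, at 0.92 (limma adjusted p = 0.0263). *E2f1*, with the limit given above, was the 1 member called higher, so *Ccnd1*, *Ccnd2* and *Mcm2* were no longer called. Then 426 genes in all were higher (3.24%) and 424 lower (3.22%), against 1981 and 119 before. *Cenpf* was at 3.19, 3.70 and 5.06 TPM in sham vehicle and 2.33, 2.08 and 4.49 TPM in MI vehicle. Markers of other cells differed between these groups as well. All 6 macrophage markers and all 6 fibroblast markers were called higher in MI, with summed levels of 519.7 to 1207 and 711 to 928 TPM, against 224 to 330.3 and 319 to 416 TPM in sham vehicle. Of the endothelial markers 4 of 6 were called higher (823 to 1717 against 697 to 907 TPM summed), of the smooth muscle and pericyte markers 3 of 6 (209.8 to 293 against 176 to 191 TPM), and of 5 atrial markers 1 (2844 to 4153 against 877 to 2545 TPM). Of 6 heart muscle markers, 2 were called lower (14711 to 18483 against 20131 to 21737 TPM). The part of any of these in the rise of the cell cycle genes was not tested.

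**Figure D3:**
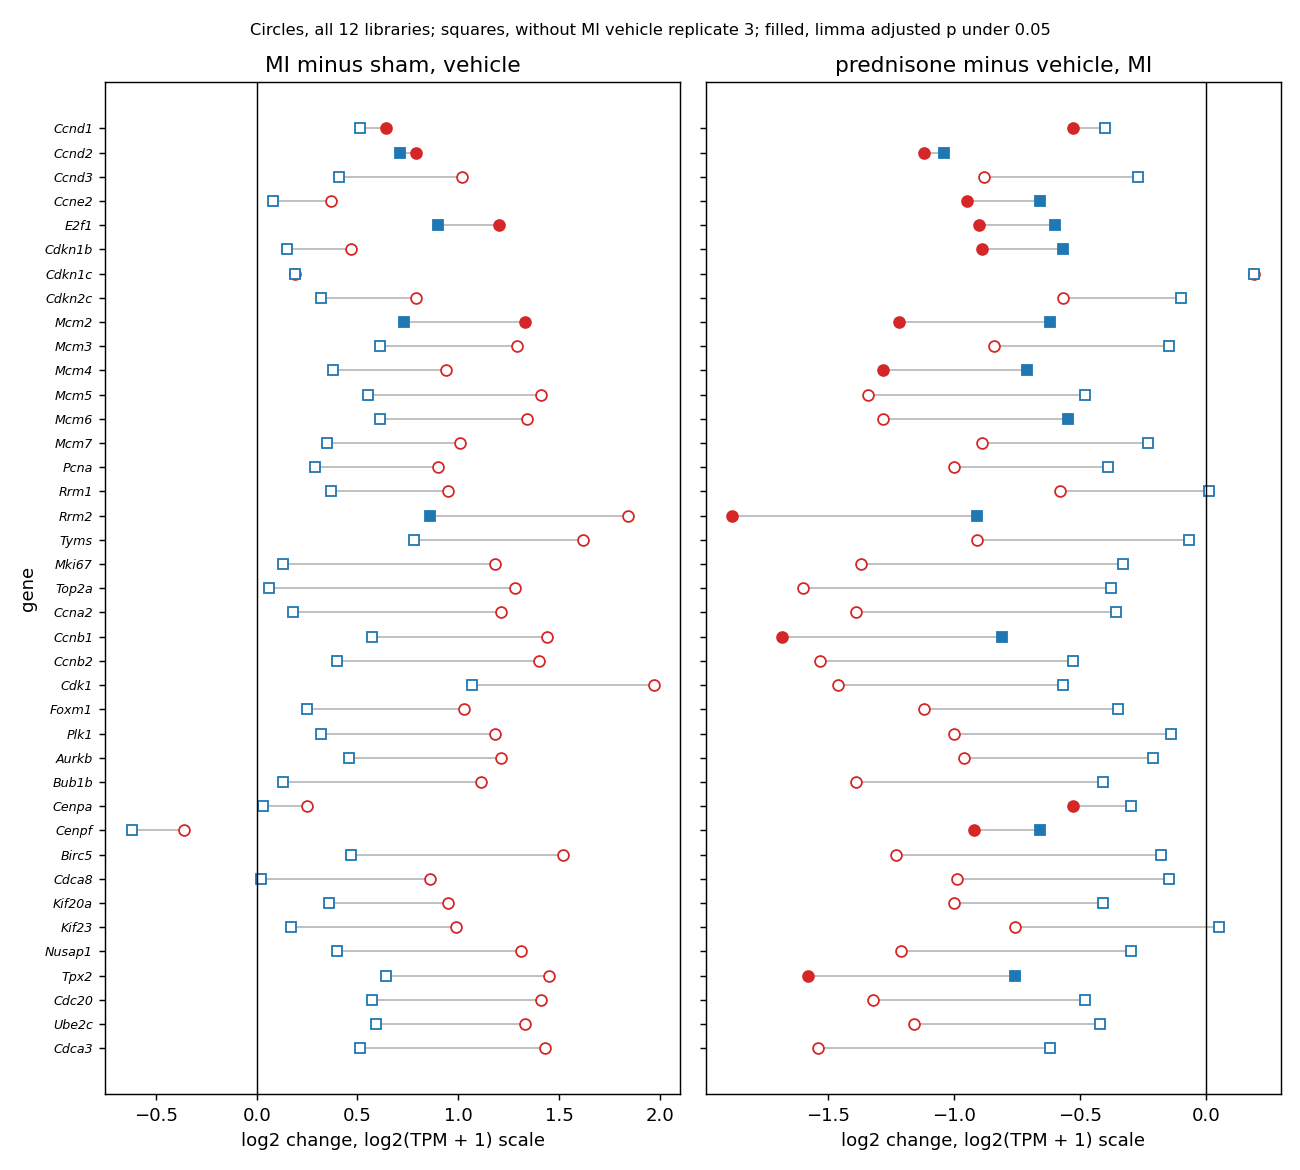
Change of the 39 members tested on the log2(TPM + 1) scale for MI minus sham under vehicle (left) and prednisone minus vehicle in MI (right), with all 12 libraries (circles) and without MI vehicle replicate 3 (squares), filled where the limma adjusted p was under 0.05. Mitotic genes move most towards 0 when that library is left out, while *Ccnd2* moves from 0.79 to 0.71 and from -1.12 to -1.04.

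MI was then compared with sham in prednisone-treated mice, where neither group holds the library with lymphocyte RNA. The share of mitochondrial transcripts was lower in 2 of the MI prednisone mice (24.6 and 21.6%) than in the third (35.9%) and the sham prednisone mice (32.4 to 37.2%), and 5 atrial markers summed to 4409 to 6267 TPM against 2032 to 2751 TPM. Called lower in MI were 3 of 6 heart muscle markers and 3 of 6 endothelial markers. Called higher were 1 of 6 fibroblast markers and 1 of the 5 atrial markers, and 0 of 6 macrophage markers were called. The part of any of these in the values below was not tested. *Cenpf* (chr1:189640606-189688086) was the 1 member that fell and 0 rose, beside 14.1% of all genes lower and 2.73% higher. It was at 3.67, 3.33 and 3.44 TPM in sham prednisone and 0.69, 1.35 and 1.10 TPM in MI prednisone. These groups were far apart, with a fall of 1.14 (SE 0.23, limma adjusted p = 0.00767), and the call held when any 1 of the 6 mice was left out. After a correction for transcript length the fall was 0.64 (limma adjusted p = 0.0388), and with a replicate block as well it was not called (limma adjusted p = 0.0555). The median over the 39 members tested was 0.06, beside -0.06 over all genes, and 3 had an unadjusted p under 0.05.

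*Ccne2*, an E-type cyclin that starts DNA replication, was at 1.93, 1.04 and 2.29 TPM in sham prednisone and 0.58, 0.60 and 0.66 TPM in MI prednisone. The groups did not overlap, but the change of -0.74 missed the threshold (limma adjusted p = 0.0726), and it was called after rescaling (-0.71, limma adjusted p = 0.0202) and after the length correction (-0.77, limma adjusted p = 0.0223). In all, 6 of 39 members were lower in MI prednisone without overlap, *Ccnd2*, *Ccne2*, *Cdkn1b*, *Mcm4*, *Mki67* and *Cenpf*, beside 32.2% of all genes tested. In the other direction, *E2f1*, *Mcm3*, *Mcm7*, *Tyms*, *Plk1*, *Birc5* and *Ube2c* were higher in all 3 MI prednisone mice than in all 3 sham prednisone mice, in 7 of 39 beside 12.9% of all genes tested, and none of the 7 was called. *Tyms* had the largest of these differences, 0.70, with 1.50, 2.02 and 2.04 TPM in sham prednisone and 5.18, 4.11 and 2.14 TPM in MI prednisone. Its most abundant transcript, annotated for nonsense-mediated decay, was at 0, 0.00091 and 0.38 TPM against 2.90, 1.29 and 0.33 TPM. The most abundant transcripts of *Tyms*, *Mcm3* and *Birc5* overlapped between these groups, and those of *E2f1*, *Mcm7*, *Plk1* and *Ube2c* did not. After rescaling, 1420 genes in all were higher and 1924 lower, against 359 and 1854 before.

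Prednisone was compared with vehicle in infarcted hearts, to see what the weekly drug changed after MI. Of the 39 members tested, 12 fell and 0 rose, beside 34.9% of all genes lower and 2.50% higher, so the members' share was again near the background. The MI vehicle mice are the same as in the comparison with sham, so the 2 sets of changes are not independent. The 12 that fell were 5 G1 genes, 3 replication genes and 4 mitotic genes, and the median over the 39 was -1.12, beside -0.41 over all genes. That median includes the 9 members admitted only through MI vehicle replicate 3. *E2f1* and *Tpx2*, which entered the test through the MI vehicle libraries alone, are 2 of the 12, and of the other 37 members 10 fell.

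In G1, *Ccnd2* was at 26.4, 37.3 and 37.2 TPM with vehicle and 13.5, 13.8 and 17.0 TPM with prednisone. The drug group lay wholly below, and also below the 15.4 to 21.7 TPM of sham vehicle in 2 of its 3 mice, with a fall of 1.12 (SE 0.16, limma adjusted p = 0.00124). *Ccnd1* was at 20.1, 33.8 and 34.5 TPM with vehicle and 20.0, 19.5 and 19.1 TPM with prednisone, a fall of 0.53 (SE 0.18, limma adjusted p = 0.0358). *E2f1* was at 1.52, 2.28 and 4.38 TPM against 0.98, 0.93 and 0.79 TPM, a difference of -0.90 (SE 0.26, limma adjusted p = 0.0188) in a gene admitted to the test by the vehicle hearts. *Cdkn1b* (chr6:134920401-134925513), which encodes p27, a brake on cyclin-dependent kinases, fell too. It was at 12.7, 13.6 and 26.6 TPM with vehicle and 9.12, 7.33 and 9.33 TPM with prednisone, and all 3 prednisone values were below every value of the other 9 mice (fall of 0.89, SE 0.22, limma adjusted p = 0.011). *Ccne2* was at 1.79, 1.34 and 3.62 TPM against 0.58, 0.60 and 0.66 TPM, a fall of 0.95 (SE 0.26, limma adjusted p = 0.0156). *Cdkn1c*, another CDK inhibitor, was at 24.3, 17.0 and 20.4 TPM against 24.1, 29.1 and 18.3 TPM, with overlapping groups and a change of 0.19 that was not called.

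**Figure D4:**
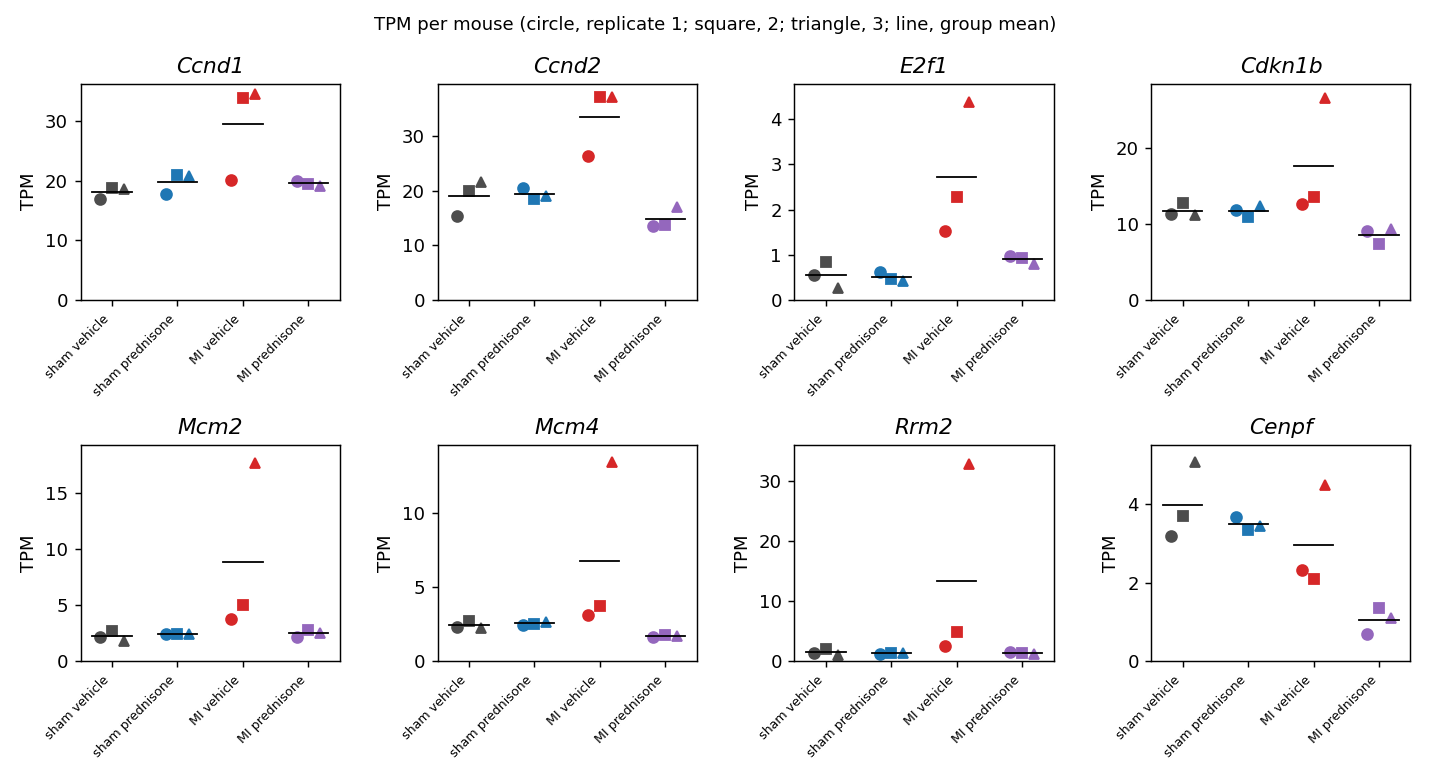
TPM in each mouse (vertical axis, linear from 0) for 8 genes that were called in at least 1 comparison, by group, with the group mean as a line and the replicate as the symbol. *Ccnd2*, *E2f1*, *Mcm2* and *Mcm4* lie higher in all 3 MI vehicle mice than in all 3 mice of either sham group, and *Cenpf* is lowest in MI prednisone, at 0.69 to 1.35 TPM.

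Among the replication genes, *Mcm4* (a helicase subunit) was at 3.14, 3.74 and 13.4 TPM with vehicle and 1.65, 1.75 and 1.72 TPM with prednisone. The prednisone values were again below those of all other groups, whose lowest was 2.27 TPM, and the fall was 1.28 (SE 0.36, limma adjusted p = 0.0186). *Mcm2* was at 3.74, 5.02 and 17.7 TPM against 2.16, 2.78 and 2.50 TPM, a fall of 1.22 (SE 0.39, limma adjusted p = 0.0301). *Rrm2* (chr12:24708241-24714146) was at 2.46, 4.83 and 32.9 TPM against 1.54, 1.36 and 1.27 TPM, a fall of 1.88 (SE 0.62, limma adjusted p = 0.0337). The other 7 replication genes were not called, and *Mcm3*, *Mcm7*, *Rrm1* and *Tyms* overlapped between the groups.

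Among the mitotic genes, *Ccnb1* (cyclin B1, the partner of CDK1) was at 1.06, 1.96 and 14.1 TPM with vehicle and 0.46, 0.33 and 0.44 TPM with prednisone, a fall of 1.68 (SE 0.57, limma adjusted p = 0.0395). *Tpx2*, a spindle assembly factor, was at 1.05, 1.93 and 12.4 TPM against 0.49, 0.55 and 0.30 TPM, a difference of -1.58 (SE 0.52, limma adjusted p = 0.0345) with the same limit as *E2f1*. *Cenpf* was at 2.33, 2.08 and 4.49 TPM against 0.69, 1.35 and 1.10 TPM, a fall of 0.92 (SE 0.23, limma adjusted p = 0.0113). The prednisone mice were below the vehicle mice without overlap in all 3 genes, and likewise for *Cenpa*, which fell by 0.53 (SE 0.18, limma adjusted p = 0.0354). *Mki67* (0.83, 1.37 and 17.2 TPM against 0.64, 0.68 and 0.65 TPM) was not called at a change of -1.37, nor was *Top2a*, whose groups overlapped, at -1.60. In all, 25 of the 39 were lower without overlap with prednisone, beside 42.6% of all genes tested, and 0 were higher (3.59%). The 39 include the 9 members admitted only through MI vehicle replicate 3, so the count is a description.

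Without MI vehicle replicate 3, 11 members were called lower and 0 higher, beside 28.0% of all genes lower and 3.63% higher. *E2f1* and *Tpx2* are among the 11, although neither would have passed the filter in the remaining libraries. They were 10 of the 12 above and *Mcm6* (-0.55, limma adjusted p = 0.0486), while *Ccnd1* (-0.40, limma adjusted p = 0.105) and *Cenpa* (-0.30, limma adjusted p = 0.0743) were not called. The falls were smaller for *Rrm2* (-0.91), *Ccnb1* (-0.81) and *Tpx2* (-0.76), little different for *Ccnd2* (-1.04), and the median over the members tested was -0.40, beside -0.22 over all genes. *Mki67*, *Top2a* and *Ccna2* changed by -0.33, -0.38 and -0.36. Without the 3 libraries at 1 TPM or more of *Rag1* the count was 11 too, beside 24.9% of all genes lower and 2.59% higher, with *Ube2c* (-0.42) in place of *Ccne2* (-0.66, limma adjusted p = 0.0522).

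The count was 35 without MI vehicle replicate 1, 18 without MI vehicle replicate 2, and 5, 6 and 5 without MI prednisone replicates 1, 2 and 3. Over all 13158 genes, 5998 and 4536 were called lower without MI vehicle replicates 1 and 2. Without MI prednisone replicates 1, 2 and 3 there were 3034, 3360 and 3689. *Ccnd2*, *Ccne2*, *Cdkn1b* and *Cenpf* were called in each of the 6 fits that left out 1 MI mouse. After median-ratio rescaling 10 of the 12 fell and *Cdkn1c* rose by 0.63 (limma adjusted p = 0.0368), and 1887 genes in all were higher and 1819 lower, against 329 and 4588 before. After the correction for transcript length, *Ccne2* alone was called (-0.59, limma adjusted p = 0.048), *Ccnd2* was at -0.44 (limma adjusted p = 0.0587), *Cenpf* at -0.21 (limma adjusted p = 0.43) and *Ccnd1* at 0.04, while in a fit of these 2 groups alone *Ccnd2* was the 1 member called. Marker lists moved as well: 4 of 6 macrophage and 5 of 6 fibroblast markers were called lower with prednisone in MI, with sums of 256 to 481 and 272 to 475 TPM, against 519.7 to 1207 and 711 to 928 TPM with vehicle. Of the endothelial markers 3 of 6 were called lower. Their sums overlapped, at 869 to 1711 TPM with prednisone and 823 to 1717 TPM with vehicle. *Fabp4*, the largest part of those sums, averaged 1082 TPM with prednisone and 980.2 TPM with vehicle. Of the smooth muscle and pericyte markers 2 of 6 were called lower (177 to 210.3 TPM against 209.8 to 293 TPM). Called higher were 2 of 6 heart muscle markers, with sums of 18766 to 20536 TPM against 14711 to 18483 TPM with vehicle. The list was mixed, with 0 called lower. Group means of *Myh6*, *Tnnt2* and *Tnni3* were higher with prednisone, and those of *Actc1*, *Ryr2* and *Pln* were lower. Of the atrial markers 4 of 5 were called higher (4409 to 6267 TPM against 2844 to 4153 TPM). The mitochondrial share was 24.6, 21.6 and 35.9% with prednisone and 35.2, 36.7 and 23.1% with vehicle. Their part in the fall of the cell cycle genes was not tested.

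In sham hearts, prednisone against vehicle gave 0 members called by limma, with 0 at an unadjusted p under 0.05, beside 0.0608% of all genes lower and 0.0532% higher. The changes ran from -0.34 for *Cdca3* to 0.22 for *Cdkn1c*, and the median was -0.09, beside 0.07 over all genes. *Cdkn1c* was the 1 member that was higher without overlap, at 16.0, 18.8 and 18.5 TPM with vehicle and 19.8, 21.3 and 21.4 TPM with prednisone, and *Bub1b*, a spindle checkpoint kinase, was the 1 that was lower, at 0.73, 1.03 and 0.70 TPM against 0.68, 0.34 and 0.51 TPM (15.6% and 2.58% of all genes tested were higher and lower without overlap). No single mouse left out gave a call among the members.

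The difference between the prednisone effect in MI and in sham hearts, the interaction, was called for *Ccnd2* alone, beside 20.7% of all genes lower and 0.540% higher. Prednisone changed *Ccnd2* by -1.12 in MI, and its value in sham hearts was 0.04 (20.5, 18.5 and 19.1 TPM with prednisone), a difference of -1.16 (SE 0.23, limma adjusted p = 0.0106). The median interaction over the 39 members tested was -1.11, beside -0.48 over all genes, and 8 had an unadjusted p under 0.05. Both figures include the 9 members admitted only through MI vehicle replicate 3. Without MI vehicle replicate 3, *Ccnd2*, *Cdkn1b*, *Mcm2* and *Mcm4* were called lower, beside 22.6% of all genes lower and 0.874% higher. Without the 3 libraries at 1 TPM or more of *Rag1*, these were *Mcm2*, *Mcm4* and *Ube2c*, beside 10.1% of all genes, with *Ccnd2* at -0.89 (limma adjusted p = 0.0653). The count was 10 without MI vehicle replicate 1 and 2 without MI vehicle replicate 2 or sham prednisone replicate 2. In these fits 4428, 2493 and 1498 of all 13158 genes were called lower. After rescaling 0 members were called by limma (4 at an unadjusted p under 0.05), with *Ccnd2* at -0.64 (limma adjusted p = 0.119), and 564 genes in all were higher (4.29%) and 577 lower (4.39%), against 71 and 2726 before. After the length correction *Ccnd2* was at -0.37 (limma adjusted p = 0.349).

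Other genes of the cycle were read from a list of 140, of which 103 passed the filter. In MI against sham under vehicle, 9 were called higher and 0 lower (median 0.57), beside 15.1 and 0.904% of all genes tested, so the share was below the background for rises. Without MI vehicle replicate 3, 3 were called higher and 0 lower (median 0.19), beside 6.95 and 0.395% of all genes (median 0.19). Of the 5 other CDK inhibitors, 3 were among the 9. *Cdkn1a*, which encodes p21, was at 6.74, 9.20 and 9.21 TPM in sham vehicle and 16.4, 28.9 and 30.5 TPM in MI vehicle, a rise of 1.45 (SE 0.24, limma adjusted p = 0.00804). *Cdkn2b*, which encodes p15, was at 0.50, 0.90 and 0.29 TPM against 1.22, 3.23 and 3.16 TPM, a rise of 1.14 (SE 0.28, limma adjusted p = 0.0259). *Cdkn2a*, the locus of p16 and p19ARF, was named after its values were seen: it was at 0.30, 0.15 and 0.29 TPM against 1.18, 1.84 and 2.55 TPM, a difference of 1.17 (SE 0.21, limma adjusted p = 0.0101). *Cdkn2a* was at 1 TPM or more in the MI vehicle libraries alone and entered the test through them, so its calls here and below are a description. In these 3 inhibitors all infarcted hearts lay above all sham hearts. *Tubb5*, a tubulin, rose by 1.23 (SE 0.36, limma adjusted p = 0.042). None of the 4 was called without the 3 libraries at 1 TPM or more of *Rag1* or when only these 2 groups were fitted, and without MI vehicle replicate 3 *Cdkn2b* was not called (0.99, limma adjusted p = 0.0682). *Cdkn1a* was then at 1.29, *Tubb5* at 0.68 and *Cdkn2a* at 1.00 (limma adjusted p = 0.0223, 0.0301 and 0.023).

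With prednisone, *Cdkn1a* was at 20.4, 20.9 and 27.5 TPM in MI hearts, and sham prednisone hearts were at 16.6 to 25.0 TPM, all above the sham vehicle mice. That difference in sham hearts was 1.21 and was not called (SE 0.24, limma adjusted p = 0.197), while the interaction was called at -1.32 (SE 0.34, limma adjusted p = 0.0218) and, without MI vehicle replicate 3, at -1.16 (limma adjusted p = 0.0309). *Cdkn2a* was at 0.40, 0.27 and 0.34 TPM in MI prednisone, a difference of -1.07 from MI vehicle (SE 0.21, limma adjusted p = 0.00352), with an interaction of -1.17 (SE 0.29, limma adjusted p = 0.0203). Both were called without MI vehicle replicate 3 too, the first at -0.90 (limma adjusted p = 0.00714 and 0.022). Of the 103 genes, 24 were called lower and 2 higher with prednisone in MI (median -0.59), beside 34.9 and 2.50% of all genes tested. With MI vehicle replicate 3 left out, 18 were called lower and 4 higher (median -0.21), beside 28.0 and 3.63% of all genes (median -0.22). In sham hearts 0 were called by limma, beside 0.0608 and 0.0532% of all genes.

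Leaving aside genes that averaged under 1 TPM across the libraries, such as *Cdkn2a*, the largest called falls among these genes with prednisone in MI were in *Racgap1*, a cytokinesis regulator (-1.57, SE 0.53, limma adjusted p = 0.0377), *E2f3*, an E2F transcription factor (-1.12, SE 0.31, limma adjusted p = 0.0159), and *Tfdp1*, the dimer partner of E2F proteins (-1.06, SE 0.27, limma adjusted p = 0.0122). *E2f3* was at 7.96, 8.25 and 14.7 TPM with vehicle and 4.82, 2.60 and 5.01 TPM with prednisone, and *Tfdp1* was at 13.3, 16.1 and 35.4 TPM against 7.96, 8.43 and 10.6 TPM. The groups did not overlap in either gene. Without MI vehicle replicate 3 the falls of *Racgap1*, *E2f3* and *Tfdp1* were 0.75, 0.86 and 0.65 (limma adjusted p = 0.0305, 0.0496 and 0.00475). The 2 that rose were subunits of the anaphase-promoting complex, *Anapc13* by 0.61 (SE 0.13, limma adjusted p = 0.00447) and *Anapc4* by 0.58 (SE 0.17, limma adjusted p = 0.0203), and without that library the rises were 0.72 and 0.64 (limma adjusted p = 0.0023 and 0.0213). The most abundant transcript of *Anapc4* went the other way, by -0.64 (limma adjusted p = 0.00707).

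In MI against sham under prednisone, 4 of the 103 rose and 4 fell (median 0.03), beside 2.73 and 14.1% of all genes tested. Rises of *Anapc4* (0.75), *Anapc15* (0.74) and *Lin37*, a subunit of DREAM and MuvB (0.71), stood beside falls of *Tfdp2*, another E2F partner (-0.82), *Ccng1*, cyclin G1 (-0.69), and *Rbl2*, the retinoblastoma relative p130 (-0.63), with limma adjusted p from 0.00572 to 0.044. The most abundant transcript of *Anapc4* was again opposite, at -0.54 (limma adjusted p = 0.0193). For the interaction, 10 were called lower and 0 higher, beside 20.7 and 0.540% of all genes. Without MI vehicle replicate 3 these were 12 and 1, beside 22.6 and 0.874% of all genes. By the same minimum level, the largest were in *E2f3* (-1.33, SE 0.43, limma adjusted p = 0.0496), *Cdkn1a*, and *Orc2*, a subunit of the origin recognition complex (-1.21, SE 0.30, limma adjusted p = 0.0192). Without that library *Orc2* was at -0.97 (limma adjusted p = 0.0107), and *E2f3* at -1.07 was not called (limma adjusted p = 0.0782).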

How the data were processed

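The authors deposited 1 table of TPM (length-corrected shares of each library) for 105129 transcripts in 12 libraries, and each column sums to 1000000. Libraries were stranded mRNA libraries, per the labels' protocols. The submitters' processing notes name Trimmomatic, HISAT2, kallisto and mm10, without role or version, and the annotation release is not given in the sources used here. TPM keeps no read depth. The p-values rest only on how mice differ within their groups of 3, with that spread shared over all 4 groups unless only the compared groups were fitted.

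Transcripts were summed to genes by symbol. Genes at 1 TPM or more in at least 3 of 12 libraries (13158) were fitted as log2(TPM + 1), which understates changes of low genes, with limma 3.58.1 in R 4.3.3 (intensity trend, 4 group means, shared spread) and Benjamini-Hochberg adjustment over all genes, with calls at an adjusted p under 0.05. The smallest two-sided p of an exact permutation test with 3 mice a group is 0.1. The model was tested on simulated data with independent noise and, for each gene, the same spread in all groups. That test does not cover a library that stands apart, such as MI vehicle replicate 3. The 44 genes and all lists were chosen with earlier results of these data known. All members were named, with statistics for those called, and of the related genes at most the 3 largest called rises and falls per comparison with a mean of at least 1 TPM; *Cdkn2a* and the immature T cell list were added after values were seen. Coordinates are from GENCODE M21 (GRCm38), whose identifiers 94.7% of rows matched. Alternatives were median-ratio rescaling, a pseudocount of 0.1, no filter, no trend, the compared groups only, a length correction (11894 genes, loess span 0.5), a replicate block, the most abundant transcript and leaving out mice.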

Additional observations from a re-analysis of the deposited data

Results flagged for a closer look

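The effect of prednisone differed between infarcted and sham hearts in 5 of the genes named, each by a limma test of the interaction. The difference (effect in MI minus effect in sham) was -1.16 for *Ccnd2*, -1.33 for *E2f3*, -1.32 for *Cdkn1a*, -1.21 for *Orc2* and -1.17 for *Cdkn2a* on the log2(TPM + 1) scale, and 20.7% of all genes tested were called in the same direction. *Cdkn2a* reached 1 TPM in the MI vehicle libraries alone and entered the test through them, so its value is a description. *Ccnd2* was lower with prednisone in MI, at 13.5 to 17.0 TPM against 26.4 to 37.3 TPM with vehicle, while the sham groups overlapped, at 18.5 to 20.5 and 15.4 to 21.7 TPM. *Cdkn1a* was higher with prednisone in sham hearts, at 16.6 to 25.0 TPM against 6.74 to 9.21 TPM, while the MI groups overlapped, at 20.4 to 27.5 and 16.4 to 30.5 TPM. *Orc2* was at 4.65, 5.94 and 9.49 TPM in MI vehicle and 3.58, 3.44 and 3.35 TPM in MI prednisone, and at 3.61, 3.03 and 3.30 TPM in sham vehicle and 5.90, 3.95 and 5.30 TPM in sham prednisone. After median-ratio rescaling *Ccnd2*, *E2f3* and *Cdkn1a* were not called (limma adjusted p = 0.119, 0.193 and 0.127), and without the 3 libraries at 1 TPM or more of *Rag1* *Ccnd2*, *Cdkn1a*, *Orc2* and *Cdkn2a* were not (limma adjusted p = 0.0653, 0.137, 0.054 and 0.0906). Leaving out 1 mouse ended the call of *E2f3* in all cases but sham vehicle replicate 1 and MI vehicle replicate 1 (limma adjusted p = 0.0516 to 0.118). It ended that of *Cdkn1a* for sham vehicle replicate 1, sham prednisone replicates 1 and 2 and MI prednisone replicates 1 and 2 (0.0512 to 0.0629), and those of *Orc2* and *Cdkn2a* for sham prednisone replicates 1 and 3 (0.0516 to 0.0534).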

How the results depend on the processing

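Values below count members and then all genes called by limma. For MI against sham under vehicle (4 and 2100), rescaling gave 2 and 850, no filter 2 and 1068, the compared groups alone 0 and 2, the length correction 2 and 632, the most abundant transcript 1 member, and fits without the 3 libraries at 1 TPM or more of *Rag1*, a choice made after seeing the data, 0 and 0. For MI against sham under prednisone (1 and 2213), rescaling gave 2 and 3344, a pseudocount of 0.1 gave 2 members, the compared groups 4 and the length correction 2. For prednisone in MI (12 and 4917), no filter gave 6 members, the compared groups 1 and 808, and the length correction 1 and 1956, where *Ccnd1* turned to 0.04. For prednisone in sham hearts (0 and 15), the fit without the *Rag1* libraries gave 4 genes. For the interaction (1 and 2797), rescaling gave 0 and 1141, a pseudocount of 0.1 or no intensity trend 2 members, the length correction 0 and 243, and the fit without the *Rag1* libraries 3 and 1353. The most abundant *Anapc4* transcript changed by -0.54 for MI under prednisone and -0.64 for prednisone in MI. Leaving out 1 mouse gave 0 to 32 members and 120 to 5631 genes for MI under vehicle, 1 to 1 and 1027 to 2630 for MI under prednisone, 5 to 35 and 3245 to 6274 for prednisone in MI, 0 to 0 and 4 to 9 for prednisone in sham hearts, and 1 to 10 and 1111 to 4520 for the interaction. Deviations from the group mean correlated between -0.58 and 0.14 for mice with the same replicate number in the 4 comparisons. With 3 mice a group and 1 library far from the rest, these values cannot decide whether the numbers pair mice. With the number as a replicate block, members called were 3, 1, 12, 0 and 1 in the order above, and all genes 1056 for MI under vehicle and 7 for prednisone in sham hearts. The block with the length correction gave 0 members and 70 genes for MI under vehicle, 942 genes for MI under prednisone, 1 and 1368 for prednisone in MI (*Ccnd1* 0.04), 6 genes for prednisone in sham hearts, and 0 and 110 for the interaction. The fit of single transcripts tested 27769, and its totals are of transcripts and cannot be set beside those of genes. In the other settings that kept all 12 mice and counted genes, these counts stayed within 1.5 times the value first given. The number of reads behind a TPM is unknown, so no counting limit could be set for genes listed near 0.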
